A study of Mus musculus with 4 samples.

Results

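Among nuclei of the mouse hippocampus, a group of excitatory neurons was picked out by 7 transcripts, each detected in a minority of excitatory nuclei: Dcn, Ndrg1, Dlk1, Tnni3k, Ccn3, Pde11a and Vegfd. A nucleus belonged to the group where at least 500 genes were detected, at least 3 of these 7 genes had 1 or more UMIs (unique molecular identifiers, each standing for 1 captured transcript), Slc17a7 had at least 1 UMI, and Gad1 and Gad2 together had at most 1. In all, 1751 of 60288 barcodes met the rule. The excitatory pool, defined by Slc17a7 and the Gad genes alone, held 33130 nuclei, so 31379 other excitatory nuclei served for comparison. A closer comparison used 5924 CA1 rule nuclei, which were excitatory nuclei outside the group with at least 3 of the 6 CA1 genes Fibcd1, Mpped1, Wfs1, Pou3f1, Spink8 and Man1a.

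The libraries came from hippocampus of mice labelled Wild type, Total/global MAGL-KO, Astrocyte specific MAGL-KO and Neuron specific MAGL-KO, 1 library each. MAGL, monoacylglycerol lipase, is encoded by Mgll and degrades the endocannabinoid 2-arachidonoylglycerol, and the series title asks what excess endocannabinoid in neurons does to cognition. The sources used here name neither the Cre drivers behind the cell-type knockouts nor the age, sex and number of the animals in each library. Values are given in the order wild type, total, astrocyte and neuron knockout, called library order.

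Pyramidal neurons are the glutamatergic output cells of the hippocampus. Along the CA1 field they differ with depth in the cell layer and with position between the dorsal and the ventral pole. Dcn encodes decorin, a small secreted proteoglycan best known from connective tissue, and Ndrg1 encodes a cytoplasmic stress-responsive protein. Dlk1 encodes a transmembrane ligand of the Notch family and is expressed from the paternal allele of an imprinted domain. Ccn3 encodes a secreted matricellular protein, Pde11a a phosphodiesterase that degrades cAMP and cGMP and is enriched in ventral hippocampus, Vegfd a growth factor of lymphatic vessels, and Tnni3k a protein kinase described mainly in heart.

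The group held 263, 769, 462 and 257 nuclei in library order. Their median depth was 14213, 9618, 10806 and 11957 UMIs, against 9957, 6498, 7999 and 9020 in the other excitatory nuclei. The total knockout library stood apart from the rest. It held 31243 barcodes where the others held 8945 to 10731, and Scrublet called 38.4% of its group nuclei doublets, against 1.17% to 8.01% elsewhere. By Xist and Y-linked transcripts, 739 of its group nuclei were male and 1 female, while the wild-type library held 85 male and 162 female, the astrocyte knockout 147 and 230, and the neuron knockout 132 and 102. Female nuclei made up 61.6%, 0.130%, 49.8% and 39.7% of the group in library order. Of the other excitatory nuclei they made up 46.3%, 0.00710%, 40.6% and 40.4%. Between 108 and 466 barcodes were shared by any pair of libraries, but only 1 barcode among the group nuclei, between wild type and astrocyte knockout.

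The 7 rule genes chose the nuclei, so their levels are a description. Levels are CPM, the UMIs of a gene summed over the nuclei of a library and scaled to the summed depth. Dcn stood at 176, 205, 280 and 209 CPM in the group, in library order, and at 10.0 CPM over all other excitatory nuclei. Ndrg1 stood at 80.1, 60.2, 65.1 and 74.6 CPM, against 5.74 CPM in the others. Dlk1 stood at 23.1, 38.4, 32.7 and 18.3 CPM, against 0.868 CPM. No library was low for all 3 of these genes. Ccn3 ran from 110 to 134 CPM over the libraries, Pde11a from 305 to 392 CPM, Tnni3k from 17.2 to 30.9 CPM and Vegfd from 16.9 to 36.6 CPM, with the lowest Vegfd level in wild type.

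Detection differed between the rule genes. Pde11a had a UMI in 87.7% of the group, Ccn3 in 77.6%, Dcn in 76.2% and Ndrg1 in 51.8%, whereas Vegfd had one in 28.1%, Tnni3k in 19.4% and Dlk1 in 19.0%. In the other excitatory nuclei, at a median depth of 7826 UMIs against 10984, these shares were 11.8%, 13.9%, 3.84%, 3.98%, 2.18%, 1.16% and 0.475%. The name Dcn Dlk1 Ndrg1 nuclei is kept here, although 1418 of the 1751 nuclei held no Dlk1 UMI. The most frequent combination was Dcn with Ccn3 and Pde11a and nothing else, in 275 nuclei (15.7%), followed by these 3 genes with Ndrg1 in 200 (11.4%) and Ndrg1 with Ccn3 and Pde11a in 178 (10.2%).

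**Figure D1:**
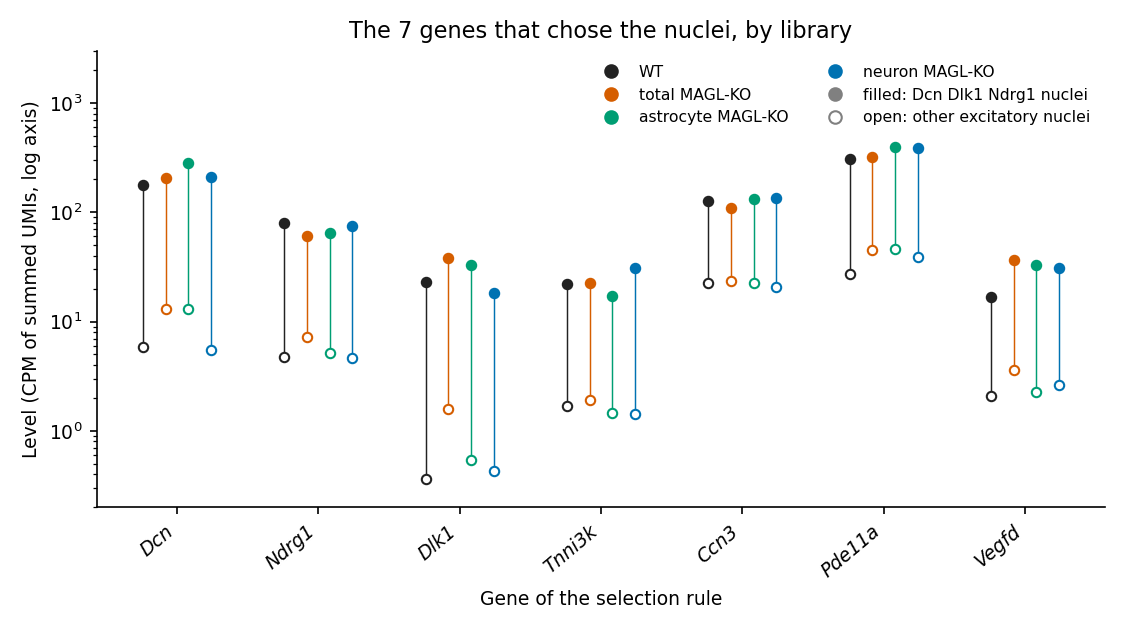
Levels of the 7 rule genes (CPM of summed UMIs, log axis) in the Dcn Dlk1 Ndrg1 nuclei (filled points) and in the other excitatory nuclei (open points) of each library, joined by a line per library. Dcn lies between 176 and 280 CPM in the nuclei of the group; because the genes chose the nuclei, the gap between filled and open points is set by the rule.

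Most nuclei lay close to the threshold. Exactly 3 rule genes were detected in 980 nuclei, 4 in 545, 5 in 178, 6 in 46 and all 7 in 2. Just outside, 2408 excitatory nuclei held exactly 2 of the genes. Dcn was at 155 CPM with 3 genes and 66.3 CPM with 2, Ndrg1 at 52.1 and 27.7 CPM, Dlk1 at 15.5 and 4.61 CPM, Ccn3 at 105 and 91.9 CPM, and Pde11a at 266 and 185 CPM.

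How often rule genes occurred together was counted over the whole excitatory pool. Of the 2539 excitatory nuclei with Dcn, 55.2% also held Pde11a, against 12.5% of those without Dcn, and 25.9% held Ndrg1, against 4.90%. After thinning to 2000 UMIs, which left out shallower nuclei, Pde11a was found in 35.2% of the nuclei with Dcn and in 6.61% of those without. Of the 482 excitatory nuclei with Dlk1, 64.9% held Dcn, against 6.82% of the rest, and at 2000 UMIs the shares were 39.2% and 3.12%. Ndrg1 was in 28.4% of the nuclei with Dlk1 and in 6.19% of the rest, and at 2000 UMIs, with 74 Dlk1 nuclei left, in 2.70% and 1.68%. These shares describe the pool from which the group was drawn and were not tested.

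In the excitatory pool the group made up 4.51% of wild-type nuclei (95% exact binomial interval 3.99 to 5.08%), 5.18% of total knockout nuclei (4.83 to 5.55%), 6.61% of astrocyte knockout nuclei (6.04 to 7.22%) and 4.71% of neuron knockout nuclei (4.16 to 5.30%). The astrocyte knockout library had the largest share and its interval did not overlap the other 3. These intervals, like all others given here, cover counting error only, and with 1 library per genotype the differences have no replicate check. The share depended on depth: when nuclei were thinned to 2000 UMIs and the whole rule was applied again, it was 0.365% (0.175 to 0.670%), 0.540% (0.388 to 0.732%), 0.898% (0.611 to 1.27%) and 0.692% (0.404 to 1.11%). The pool then held 2740, 7591, 3454 and 2456 nuclei, because fewer nuclei kept a Slc17a7 UMI and 500 genes and because 66, 456, 54 and 135 excitatory nuclei with fewer UMIs were left out. At that depth the astrocyte knockout again had the largest share, but its interval overlapped those of the other 3 libraries, wild type included. With only nuclei of 5000 to 20000 UMIs the group made up 4.47% in wild type (3.92 to 5.08%), 6.60% in the total knockout (6.13 to 7.09%), 7.18% in the astrocyte knockout (6.53 to 7.88%) and 5.13% in the neuron knockout (4.504 to 5.81%), so there too the interval of the astrocyte knockout overlapped that of the total knockout, which lay above wild type.

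The neuronal identity of the group was checked on marker lists. A gene was called different from the other excitatory nuclei by edgeR's quasi-likelihood test on the summed counts of the 4 libraries with library as a block, at a Benjamini-Hochberg adjusted p under 0.05 over all genes tested. By this rule 10.7% of the 18203 genes were higher in the group and 13.6% lower, with a median log2 fold change of -0.01. The block takes out differences in level between libraries, but not a difference in the sex of nuclei between group and others within a library. The spread behind each p is how far the difference between group and others varied over the 4 libraries, which are also 4 genotypes.

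Markers of CA1 pyramidal neurons were mostly higher: 5 of 6 were higher and 1 lower, with a median log2 fold change of 0.73. Mpped1 was at 184, 182, 187 and 209 CPM in the group and at 90.4, 97.9, 95.6 and 99.2 CPM in the other excitatory nuclei (log2 fold change 0.98 ± 0.05 SE, adjusted p = 2.56e-08). The group was higher in all 4 libraries, with no overlap. Man1a, a mannosidase of the Golgi, was higher by 1.04 ± 0.08 on the log2 scale (adjusted p = 7.71e-07) and Fibcd1, which encodes a membrane receptor for acetylated sugars, by 1.22 ± 0.11 (adjusted p = 3.80e-06). Wfs1, a marker of dorsal CA1 encoding a protein of the endoplasmic reticulum, was the exception, at 11.3, 12.3, 13.8 and 11.0 CPM against 21.5, 18.4, 21.5 and 20.9 CPM (log2 -0.73 ± 0.09, adjusted p = 5.62e-05).

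Markers of ventral CA1 were split. Of 7 genes 3 were higher, Grp, Nr2f2 and Htr2c, and 1 was lower, Trhr. Grp, which encodes gastrin-releasing peptide, stood at 68.1, 43.1, 67.5 and 62.6 CPM in the group against 23.1, 18.8, 23.8 and 21.3 CPM (log2 1.44 ± 0.07, adjusted p = 2.94e-08). Nr2f2, a nuclear receptor that acts as a transcription factor, stood at 21.3, 39.3, 35.0 and 30.6 CPM against 13.9, 18.4, 16.2 and 13.3 CPM (log2 1.02 ± 0.09, adjusted p = 2.34e-06). For both genes the group was higher in each of the 4 libraries. Trhr, the receptor of thyrotropin-releasing hormone, was at 4.62, 11.0, 7.18 and 1.22 CPM against 11.0, 13.4, 11.0 and 9.13 CPM (log2 -0.75 ± 0.21, adjusted p = 0.0179). Lypd1, Calb2 and Gpc3 did not pass the test, and Gpc3 ran from 2.31 CPM in wild type to 34.9 CPM in the total knockout within the group.

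Several lists of other hippocampal and cortical neurons held mostly lower genes. All 7 markers of dentate granule cells, all 7 of CA3, 4 of 6 of CA2, 6 of 7 of subiculum and deep cortex and 5 of 6 of upper cortex and entorhinal neurons were lower. Ntng2, a netrin-family adhesion protein on the subiculum and deep cortex list, was the 1 gene of these 5 lists higher than in other excitatory nuclei (log2 0.34 ± 0.05, adjusted p = 3.20e-04). Those nuclei include neurons of such types, so these lower levels do not set the group apart from CA1 neurons. Against CA1 rule nuclei 5 of 6 granule genes tested were lower and 1 higher. Of CA3 genes 3 of 6 and of CA2 genes 1 of 6 were lower, 0 by 2-fold. On the subiculum list 3 of 7 were lower and 1 higher, and on the upper cortex list 3 of 6 lower and 2 higher. The mossy cell list was split, with Glipr1 and Ajap1 higher, Csf2rb2 lower and the other 3 of its 6 genes not past the test.

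Of the oligodendrocyte list 6 of 7 genes were lower and none higher, and of the astrocyte list 3 of 6 were lower and none higher. Of the inhibitory list 1 of 4 genes, Erbb4, was lower and none higher, leaving out Gad1 and Gad2, which the rule limits. The summed level of all 6 inhibitory genes, which the rule therefore held down in part, was 9.50, 14.9 and 11.0 CPM in the group nuclei of the wild-type, astrocyte knockout and neuron knockout libraries, but 76.7 CPM in the total knockout, where Erbb4 alone stood at 62.5 CPM. In the other excitatory nuclei of that library the same sum was 147 CPM. Since Dcn is a classical fibroblast transcript, vascular and meningeal markers were examined: over the whole group Col1a1 had 8 UMIs, Col1a2 2, Lum 14 and Cldn5 1, and none of the 5 vascular genes tested passed the test against other excitatory nuclei. Of the 2 tested against CA1 rule nuclei 1 was higher, Pdgfrb, a receptor of pericytes, with 55 UMIs in the group (log2 1.67 ± 0.32, adjusted p = 1.87e-03). The summed level of that list was 3.97 to 6.79 CPM in the group and 3.35 to 4.93 CPM in the other excitatory nuclei. Of the excitatory list, apart from the rule gene Slc17a7, 5 of 6 genes were lower. Camk2a, the alpha subunit of the calmodulin kinase of forebrain synapses, was at 714, 633, 706 and 711 CPM against 741, 728, 831 and 782 CPM (log2 -0.16 ± 0.04, adjusted p = 0.0141).

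With a 2-fold change required beside the adjusted p, 332 genes (1.82% of those tested) were higher in the group and 866 (4.76%) lower than in the other excitatory nuclei. Adra1a, which encodes an adrenergic receptor coupled to phospholipase C, lies at chr14:66635251-66771168 (mm10, plus strand). Its level was 62.9, 65.1, 86.1 and 86.2 CPM in the group and 6.74, 10.4, 7.78 and 7.68 CPM in the other excitatory nuclei, the largest fold among the 15 higher genes named by rank, all at 10 CPM or more in the group, at 8.94-fold (log2 3.16 ± 0.12, adjusted p = 5.54e-09). All 4 group values lay above all 4 values outside.

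Nnat, an imprinted gene that encodes the small membrane protein neuronatin, lies at chr2:157560078-157562522 on the plus strand. It was at 463, 457, 674 and 411 CPM in the group against 99.7, 126, 151 and 93.7 CPM (4.24-fold, log2 2.08 ± 0.06). Amz1, a metallopeptidase, was at 22.9, 24.6, 33.7 and 30.3 CPM against 4.39, 6.67, 7.76 and 4.29 CPM (log2 2.22 ± 0.13). In both cases the astrocyte knockout held the highest level inside the group and outside it.

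Col5a2, a fibrillar collagen chain, was at 28.3, 16.1, 23.3 and 26.9 CPM against 6.05, 6.10, 6.21 and 5.66 CPM (log2 1.90 ± 0.13), and Adamtsl1, a secreted protein of the ADAMTS-like family, at 388, 425, 395 and 462 CPM against 125, 144, 121 and 121 CPM (log2 1.70 ± 0.06). Cpne7, a calcium-dependent phospholipid-binding copine, was at 379, 405, 519 and 521 CPM against 98.1, 132, 177 and 142 CPM (log2 1.74 ± 0.07). March3, a membrane ubiquitin ligase, was higher by 1.75 ± 0.07, Abca8a, a lipid transporter, by 1.79 ± 0.13 and Dpy19l2 by 1.78 ± 0.13 on the log2 scale. Non-coding genes also ranked high, led by 2600014E21Rik at 62.7, 38.1, 51.7 and 58.4 CPM against 8.12, 8.23, 9.21 and 9.07 CPM (log2 2.56 ± 0.10), and followed by 9630002D21Rik, Gm28578, Gm48159, Gm44618 and Gm6260 at log2 1.73 to 2.03. Gm6260 depended on where in the group it was measured: outside cluster 6, which held most of the group and is described further on, its log2 fold change was -0.10 (adjusted p = 0.893).

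Of the 10 lower genes named by rank, several are described here. Prox1, the homeobox factor of granule cells, was at 1.28, 6.79, 3.59 and 0.917 CPM in the group and at 72.9, 70.1, 69.3 and 64.5 CPM in the others (log2 -4.16 ± 0.20, adjusted p = 2.94e-08). Slc4a4, a sodium bicarbonate cotransporter, was at 17.7, 49.9, 19.4 and 8.56 CPM against 271, 241, 241 and 253 CPM (log2 -3.30 ± 0.25). Adarb2, an RNA-editing enzyme homologue, was at 5.91, 99.9, 28.7 and 16.2 CPM against 505, 509, 342 and 420 CPM (log2 -3.63 ± 0.35). For each of these 3 genes the total knockout held the highest level in the group. Dsp, which encodes desmoplakin and lies on the granule list, had 11 UMIs in all 1751 nuclei, with 0 in wild type and in the neuron knockout, where 3 counts would equal 0.770 and 0.917 CPM. It stood at 13.0 to 18.1 CPM outside the group.

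**Figure D2:**
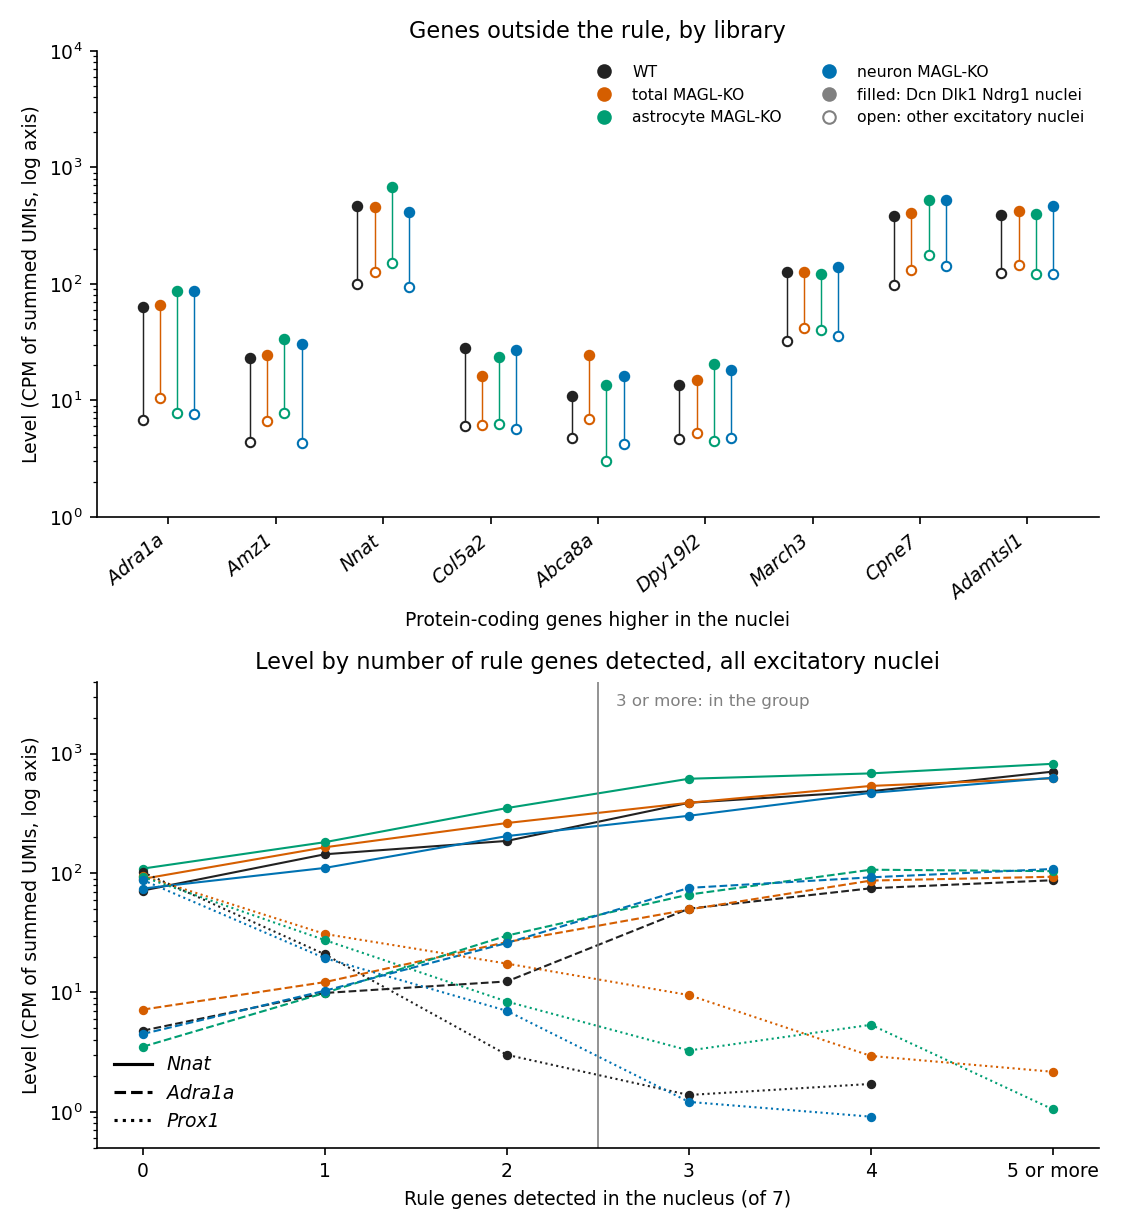
Top, levels of 9 protein-coding genes that the rule did not use (CPM, log axis) in the Dcn Dlk1 Ndrg1 nuclei (filled) and the other excitatory nuclei (open) of each library; for each gene all 4 filled points lie above all 4 open ones. Bottom, levels of Nnat, Adra1a and Prox1 (CPM, log axis) in all excitatory nuclei by the number of rule genes detected, 1 line per library; a level of 0 is not drawn.

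Nnat and Adra1a, chosen here as high-ranking genes of the same comparison, were also measured by the number of rule genes detected, on both sides of the threshold. Wild-type Nnat was at 71.4 CPM in excitatory nuclei with none of the 7 genes, 144 CPM with 1, 186 CPM with 2, 388 CPM with 3, 484 CPM with 4 and 708 CPM with 5 or more. In the neuron knockout the same steps were 74.2, 110, 204, 302, 470 and 629 CPM. Adra1a in wild type was at 4.79, 9.91, 12.4, 50.3, 74.6 and 87.1 CPM. Over the 4 libraries together nuclei with more rule genes were also deeper, which CPM scales for, and no test was made of the trend. In wild type alone the median depth was 14320 UMIs with 3 rule genes and 13381 with 4.

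Against CA1 rule nuclei, whose CA1 genes had chosen them and were not tested, 345 of 15484 genes were at least 2-fold higher in the group (2.23%) and 291 lower (1.88%). Adra1a stood out again, with 8.05, 12.3, 10.4 and 11.7 CPM in the CA1 rule nuclei (log2 2.74 ± 0.10, adjusted p = 7.62e-10), as did Nnat (log2 2.09 ± 0.06). Abca8a, at 10.8, 24.5, 13.5 and 16.2 CPM in the group against 1.17, 3.38, 0.880 and 0.678 CPM, was the highest of the named genes (log2 3.31 ± 0.21, adjusted p = 1.28e-07). Plce1, a phospholipase C activated by Ras proteins, was at 19.8, 36.9, 31.8 and 31.2 CPM against 2.55, 8.66, 4.65 and 3.61 CPM (log2 2.53 ± 0.15). Trpc7, a cation channel opened by diacylglycerol, was at 20.0, 25.4, 32.5 and 28.7 CPM against 2.75, 6.21, 5.03 and 3.31 CPM (log2 2.51 ± 0.15), and Col6a1, a collagen VI chain, at 24.6 to 35.5 CPM against 3.37 to 9.64 CPM (log2 2.30 ± 0.14). For each of these genes the lowest library of the group lay above the highest library of the CA1 rule nuclei.

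Of the named genes that were lower than in CA1 rule nuclei, 2 encode extracellular proteins. Col11a1, a fibrillar collagen chain, was at 10.8, 8.73, 17.9 and 11.9 CPM against 66.1, 58.2, 71.3 and 64.8 CPM (log2 -2.46 ± 0.10, adjusted p = 3.39e-09). Egfl6, a secreted protein with EGF repeats, was at 3.08, 3.03, 0.897 and 3.36 CPM against 17.3, 16.3, 17.2 and 18.4 CPM (log2 -2.80 ± 0.20). The others were 4921539H07Rik, 1700007F19Rik and B230110G15Rik, at log2 -3.25 to -2.68. B230110G15Rik and Gm48159 are annotated as antisense genes, and since it is not given whether strand was used in counting, reads of the opposite gene may be part of their counts.

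On the ventral CA1 list 4 of 7 genes were higher than in CA1 rule nuclei and none lower: Nr2f2 (log2 1.499 ± 0.091, adjusted p = 8.59e-08), Grp (1.43 ± 0.07, adjusted p = 9.88e-09), Htr2c, a serotonin receptor (1.14 ± 0.10, adjusted p = 1.81e-06), and Gpc3, a glypican (1.84 ± 0.27, adjusted p = 2.38e-04). In this comparison 11.3% of all genes tested were higher at an adjusted p under 0.05 and 10.9% lower.

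Dlk1 lies in an imprinted domain at the distal end of chromosome 12, in which protein-coding genes are expressed from the paternal allele and long non-coding RNAs such as Meg3, Rian and Mirg from the maternal one. Apart from Dlk1 itself, all 5 listed genes of the domain were higher in the group than in the other excitatory nuclei at an adjusted p under 0.05, a set listed with earlier results of these data known. Meg3 (chr12:109541001-109571726, plus strand) was at 7669, 9374, 8835 and 9537 CPM against 5052, 6483, 5865 and 6377 CPM (log2 0.57 ± 0.03, adjusted p = 6.60e-08). Rian was higher by 0.43 ± 0.04, Mirg by 0.41 ± 0.05 and Rtl1, a retrotransposon-derived gene, by 0.30 ± 0.09 (adjusted p = 0.0341) on the log2 scale. Against CA1 rule nuclei 4 of the 5 were higher and 0 lower, with a median log2 fold change of 0.21 in place of 0.43. Within the group Meg3 was higher where Dlk1, itself a rule gene, had a UMI. It stood at 10514, 10681 and 10329 CPM with Dlk1 in wild type, total and astrocyte knockout, and at 7217, 9000 and 8462 CPM without.

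Dio3 was the listed gene of the domain with the largest difference. It encodes the deiodinase that inactivates thyroid hormone and lies at chr12:110279068-110281097 on the plus strand, at the end of the domain away from Dlk1. Its level was 4.62, 3.64, 5.02 and 4.89 CPM in the group and 0.245, 0.630, 0.375 and 0.448 CPM in the other excitatory nuclei (log2 3.32 ± 0.30, adjusted p = 4.28e-06), and in every library the group was higher. The counts are low, 92 UMIs in the group in all.

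Dio3 was also measured by whether a Dlk1 UMI was found, which at this depth can miss Dlk1 in nuclei that express it. In the 1418 group nuclei without a Dlk1 UMI it was at 4.33 CPM (95% Poisson interval 3.40 to 5.43), and in the 333 with Dlk1 at 4.64 CPM (2.75 to 7.33). Outside the group it was at 0.454 CPM (0.378 to 0.542) in 31230 excitatory nuclei without Dlk1, and at 1 UMI, 0.694 CPM (0.0176 to 3.87), in the 149 with Dlk1. The remaining genes between Dlk1 and Dio3 were looked at after these values were seen, so they carry no test. Toward Dio3 lie Gm34719 at log2 3.18 ± 0.26, 3110009F21Rik at 3.60 ± 0.35, Gm40576 at 2.74 ± 0.54 and Dio3os at 3.38 ± 0.39. Their counts are low: in that order they had 10, 12, 8 and 9 UMIs in the 333 group nuclei with Dlk1. In the 229 wild-type group nuclei without Dlk1 they had 10, 9, 3 and 3. Gm34667 was at 1.34 ± 0.16, B830012L14Rik, close to Mirg, at 0.47 ± 0.04 and Gm34081, next to Dlk1, at 1.02 ± 0.45. Dio3os runs opposite to Dio3 beside its start, so the same reservation on strand applies.

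**Figure D3:**
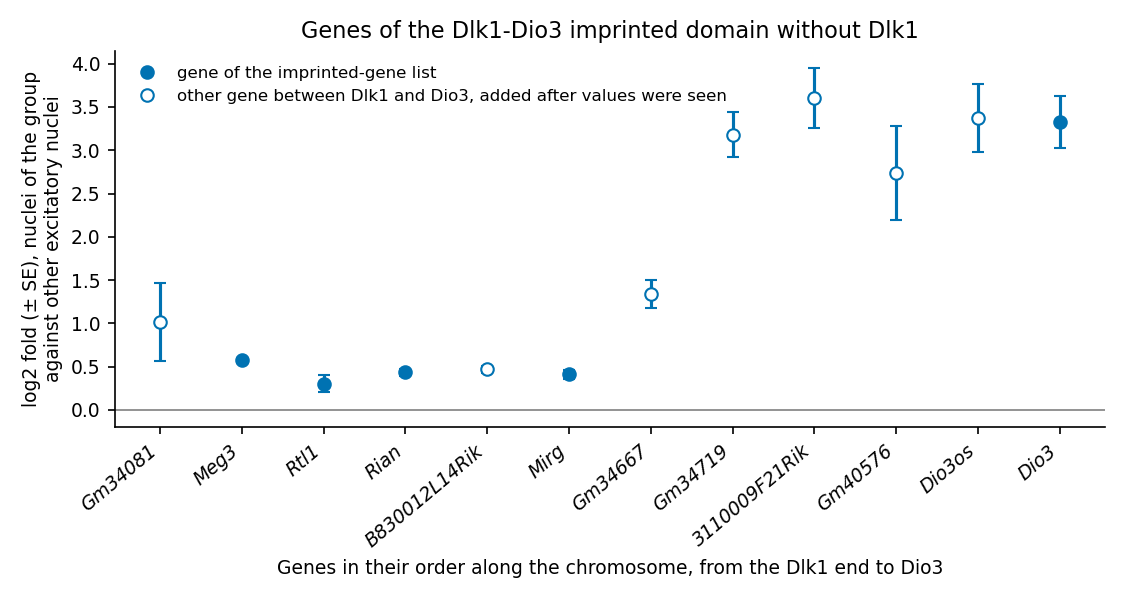
Log2 fold change (± SE, edgeR with library as a block) of the Dcn Dlk1 Ndrg1 nuclei against other excitatory nuclei for genes of the imprinted domain, in chromosome order and without Dlk1; filled points are genes of the list, open points were added after values were seen. Meg3, Rtl1, Rian and Mirg lie between 0.30 and 0.57, while the points from Gm34719 to Dio3, which rest on low counts, lie between 2.74 and 3.60.

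The endocannabinoid list was examined next. Mgll, the gene targeted in the knockouts, stood at 42.6, 27.2, 36.4 and 34.5 CPM in the group and at 106, 82.9, 113 and 111 CPM in the other excitatory nuclei (log2 -1.57 ± 0.06, adjusted p = 9.03e-09). It was lower in the group in every library, wild type included, and it was also lower than in CA1 rule nuclei (log2 -1.18 ± 0.07, adjusted p = 7.36e-08). Cnr1, which encodes the cannabinoid receptor of presynaptic terminals, went the other way, at 104, 111, 116 and 129 CPM against 48.7, 58.9, 58.1 and 48.4 CPM (log2 1.08 ± 0.07, adjusted p = 2.53e-07).

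Of the 15 endocannabinoid genes 1 was higher and 7 were lower, with a median log2 fold change of -0.16. Dagla, the main neuronal enzyme that makes 2-arachidonoylglycerol, was at 56.8, 56.5, 61.5 and 56.5 CPM against 84.3, 86.5, 105 and 103 CPM (log2 -0.70 ± 0.06, adjusted p = 1.83e-06). Plcb4, a phospholipase C isoform upstream of that enzyme, was at 3.67 to 16.4 CPM against 31.4 to 47.4 CPM (log2 -2.17 ± 0.21, adjusted p = 6.43e-06), and Napepld, an enzyme of anandamide synthesis, was lower too (log2 -1.001 ± 0.070, adjusted p = 4.48e-07). The other monoacylglycerol hydrolases, Abhd6 and Abhd12, did not pass the test, with log2 fold changes of -0.14 ± 0.06 and -0.11 ± 0.05. Against CA1 rule nuclei, 2 of the 15 were higher and 8 lower, Cnr1 being higher by 0.61 ± 0.06 and Napepld by 0.41 ± 0.11.

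Immediate early genes, which neurons transcribe for a short time after activity, were mostly lower: 1 of 19 was higher and 11 were lower, with a median log2 fold change of -0.56. Against CA1 rule nuclei 2 were higher and 15 lower, with a median of -0.74. Egr1, a zinc finger factor, was at 10.8, 15.5, 7.71 and 12.5 CPM against 28.0, 26.2, 13.7 and 31.8 CPM in other excitatory nuclei (log2 -1.02 ± 0.11, adjusted p = 1.83e-05). Nr4a1, an orphan nuclear receptor, was at 34.4, 34.6, 24.8 and 44.6 CPM against 66.1, 59.2, 43.1 and 74.8 CPM (log2 -0.82 ± 0.06, adjusted p = 4.25e-07). Both inside and outside the group the astrocyte knockout held the lowest level of these 2 genes. Homer1, a scaffold of postsynaptic receptors, and Bdnf, a neurotrophin, were lower (log2 -0.26 ± 0.04 and -0.76 ± 0.07), while Fosl2, an AP-1 factor, was higher by 0.60 ± 0.11 (adjusted p = 1.04e-03).

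Cyclic nucleotide phosphodiesterases other than Pde11a differed in both directions. Of 16 genes 3 were higher and 7 lower than in other excitatory nuclei. Pde1a, a calmodulin-dependent enzyme, was at 1543, 1583, 1812 and 1674 CPM against 830, 940, 950 and 845 CPM (log2 0.89 ± 0.04, adjusted p = 2.70e-08). Pde9a, which is selective for cGMP, was at 32.1, 40.3, 41.6 and 45.2 CPM against 15.5, 22.6, 17.9 and 16.5 CPM (log2 1.10 ± 0.09, adjusted p = 1.55e-06), and Pde10a was higher by 0.19 ± 0.05. Pde4d, which is selective for cAMP, was lower (log2 -0.90 ± 0.05, adjusted p = 9.17e-08), as was Pde7b (log2 -2.02 ± 0.14).

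Relatives of the other rule genes did not share their pattern as families. Of the NDRG family, Ndrg3 and Ndrg4 were lower (log2 -0.28 ± 0.05 and -0.34 ± 0.05), and Ndrg2 did not pass the test. In the CCN family Ccn1 and Ccn2 were lower, each with at most 16 UMIs in the group. Vegfc, the closest relative of Vegfd, was at 21.8, 23.8, 16.7 and 21.1 CPM against 12.5, 16.7, 12.6 and 13.9 CPM (log2 0.56 ± 0.09, adjusted p = 3.85e-04), while the receptors Nrp1 and Nrp2 were lower (log2 -0.45 ± 0.05 and -1.20 ± 0.09). Among small leucine-rich proteoglycans Epyc, which encodes epiphycan, was at 5.14, 2.67, 4.84 and 6.42 CPM against 1.21, 0.853, 1.498 and 1.44 CPM (log2 1.87 ± 0.20, adjusted p = 2.04e-05), and Ogn was lower, with 8 UMIs in the group. In the Notch pathway, with 13 genes tested, the ligands Dll1 and Jag2 were higher (log2 1.47 ± 0.22 and 0.43 ± 0.08) and Notch1, Notch2 and the ligand Jag1 were lower. Dll1 rested on 70 UMIs.

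On the list of neuropeptides and receptors 12 of 24 genes were lower and 2 higher than in other excitatory nuclei, with a median log2 fold change of -0.51. The higher genes were Grp and Htr2c, the latter a serotonin receptor that the list holds although its ligand is no peptide. Against CA1 rule nuclei the list was split, with 5 of 21 genes higher (Grp, Htr2c, Sst, Oprm1 and Oprd1), 5 lower and a median of 0.21. Cck, cholecystokinin, stood at 326, 206, 261 and 272 CPM against 384, 247, 340 and 331 CPM (log2 -0.29 ± 0.04, adjusted p = 2.65e-04). Of the voltage-gated potassium channel genes, Kcnd2, the channel of somatodendritic A-type current, was lower (log2 -0.31 ± 0.05), and Kcnh5, an ether-a-go-go channel, had the largest difference on the list (log2 -2.19 ± 0.13, adjusted p = 1.22e-07), at 10.7 to 22.4 CPM in the group against 54.2 to 86.1 CPM. Glutamate receptor subunits were split, 5 of 13 higher and 5 lower. Grin3a, an NMDA receptor subunit that lowers calcium permeability, was at 160, 150, 135 and 170 CPM against 52.5, 66.3, 49.6 and 59.8 CPM (log2 1.42 ± 0.06, adjusted p = 2.01e-08), the largest difference on that list. Gria2, the subunit that makes AMPA receptors impermeable to calcium, did not pass the test (log2 0.10 ± 0.04, adjusted p = 0.0644), and Grik4, a kainate receptor subunit, was lower (log2 -0.82 ± 0.06).

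How far the nuclei formed a population of their own was examined by clustering all nuclei without the rule genes. Of 53 clusters 33 held at least 1 group nucleus, and clusters 6 and 5 held 71.0% of the group. They held 17.1% of the other excitatory nuclei. Cluster 6 alone held 60.3% of the group and cluster 5 held 10.7%. By library the share of group nuclei in these 2 clusters was 84.4%, 57.5%, 77.3% and 86.4%, lowest in the total knockout. Started from 2 other random seeds, the 2 fullest clusters held 69.8% and 68.1%, but the fullest alone held 39.5% and 40.7% in place of 60.3%. Clusters were not matched between runs, so the fullest clusters of those runs need not be clusters 6 and 5. Values given for single clusters belong to the first run only.

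Cluster 6 held 1055 group nuclei among 2379 excitatory ones (44.3%). Its 10 leading genes included Adra1a, 2600014E21Rik, Gm44618, Gm6260 and Nnat, named above from the test against other excitatory nuclei, so those results and this cluster describe overlapping sets of nuclei. Of 6 CA1 markers 3 were at least 2-fold above the other excitatory nuclei and in at least 10% of its nuclei, but no marker of any list was among its leading genes, and it was left unnamed. Its 1324 excitatory nuclei outside the group had a similar median depth (10068 against 10648 UMIs) and lower levels of the rule genes, Dcn at 35.4 CPM against 250 CPM and Ccn3 at 74.6 CPM against 138 CPM, but above those of the cluster 5 nuclei outside the group, where they stood at 1.99 and 36.7 CPM.

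Cluster 5 was CA1-like, with 6 of 6 CA1 markers and with Fibcd1 and Spink8 among its leading genes. It held 188 group nuclei among 4215 excitatory ones (4.46%). In library order the group made up 7.86%, 2.85%, 3.74% and 4.88% of its excitatory nuclei. In the whole excitatory pool the shares were 4.51%, 5.18%, 6.61% and 4.71%, so the group was not concentrated in cluster 5 in every library. These nuclei differed from those of cluster 6 in the genes that had admitted them: Dlk1 was found in 0.532% of them against 21.0%, and Dcn stood at 60.1 CPM against 250 CPM, while Pde11a stood at 431 and 406 CPM. Cluster 21, with Rorb of the upper cortex list among its leading genes, held 88 group nuclei, of which 59 came from the total knockout. That library also gave 571 of the 919 excitatory nuclei of cluster 21. Cluster 13, led by Fign and with 4 of 7 ventral CA1 markers, held 86, of which 70 came from the total knockout. Of its 638 excitatory nuclei 537 came from that library, so both clusters were mostly total knockout with or without the group. Cluster 1, with 5 of 7 CA3 markers and 3 of 6 mossy cell markers, held 57. A further 43 lay in the small cluster 48, led by C1qtnf7, with 0, 20, 20 and 3 in library order. Its excitatory nuclei numbered 4, 72, 80 and 10.

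**Figure D4:**
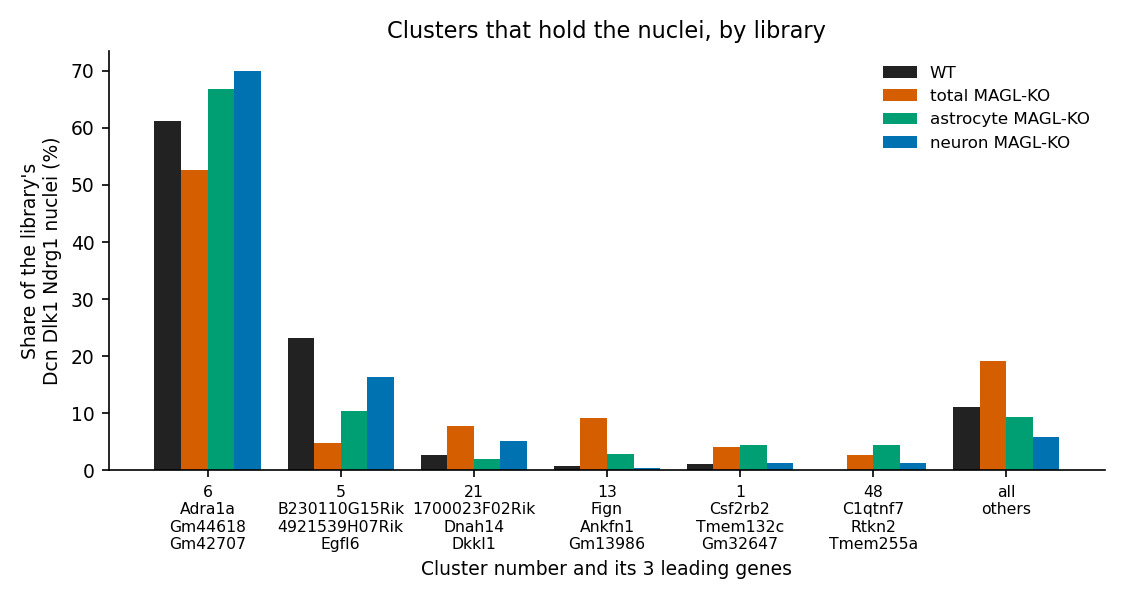
Share of each library's Dcn Dlk1 Ndrg1 nuclei (%) in the 6 clusters that held most of them and in all other clusters; each cluster is given by its number and 3 leading genes. Cluster 6 holds 52.7% to 70.0% of the nuclei of every library, and cluster 5 from 4.81% in the total knockout to 23.2% in wild type.

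Restricted to cluster 6, the group gave 439 higher and 1241 lower genes against other excitatory nuclei at 2-fold, and outside cluster 6 it gave 148 and 279. Against CA1 rule nuclei the counts were 396 and 594 within cluster 6 and 237 and 120 outside it. Of the genes named here Col5a2, Dpy19l2, Gm44618 and Gm6260 fell below the 2-fold threshold outside cluster 6, at log2 0.88, 0.87, 0.62 and -0.10.

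The knockouts were then compared with wild type within the group, starting with the targeted gene. Mgll had 166, 224, 203 and 113 UMIs in the group. Its log2 ratio to wild type was -0.65 in the total knockout (95% conditional binomial interval -0.95 to -0.35), -0.23 in the astrocyte knockout (-0.53 to 0.08) and -0.30 in the neuron knockout (-0.66 to 0.05), so the last 2 intervals included 0. In the other excitatory nuclei the ratios were -0.36 (-0.41 to -0.31), 0.09 (0.04 to 0.14) and 0.06 (0.01 to 0.11). Mgll UMIs were thus counted in the group in all 3 libraries labelled knockout, also in the total knockout; the part of free RNA in these counts was not tested. The deleted exons of Mgll are not named in the labels, and a count over the whole gene does not check a deletion that leaves part of the transcript. Without called doublets the ratio in the total knockout was -1.24 (-1.67 to -0.82). Within cluster 6 the ratios were -0.64, 0.11 and -0.03, and outside it -0.90, -0.43 and -0.36.

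Among the 10884 genes that reached 100 UMIs in the group, all libraries together, 203 were at least 2-fold higher in the total knockout than in wild type (1.87%) and 94 lower (0.864%). The astrocyte knockout gave 97 higher (0.891%) and 56 lower (0.515%), and the neuron knockout 71 higher (0.652%) and 94 lower (0.864%). The median log2 ratio over these genes lay between -0.02 and -0.01. With 1 library per genotype no p-value can be given, and the 3 ratios of a gene share the wild-type count, so a high or low wild-type value moves them together. Without called doublets the total knockout gave 121 higher genes in place of 203. In male nuclei only, with 9488 genes, the total knockout gave 259 higher and 87 lower. The astrocyte knockout gave 253 and 136 there and the neuron knockout 174 and 133. The filter pools the libraries, so a gene low in wild type could pass through the library in which it was high, and at 50 UMIs the total knockout gave 335 higher and 217 lower genes. Genes were named only where their mean level over the 4 libraries was at least that outside the group. A gene could meet this too through the knockouts alone. In wild type Gpc3 stood at 2.31 CPM in the group and 11.8 CPM outside it, and Rab3b at 7.70 and 14.2 CPM. The ratios outside the group, given beside those of named genes, are therefore a description.

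Gpc3, which encodes a glypican, a heparan sulfate proteoglycan of the cell surface, had 9, 288, 165 and 26 UMIs in the group, or 2.31, 34.9, 29.6 and 7.95 CPM. Relative to wild type the log2 ratio was 3.92 in the total knockout (2.97 to 5.06), 3.68 in the astrocyte knockout (2.72 to 4.83) and 1.78 in the neuron knockout (0.64 to 3.06). In the other excitatory nuclei the ratios were 0.03, -0.25 and -0.71. The ratios were above 0 both within cluster 6, at 4.74, 4.43 and 2.11, and outside it, at 2.93, 2.47 and 1.52, where the interval of the neuron knockout included 0 (-0.17 to 3.42). Among excitatory nuclei of cluster 6 that did not belong to the group, wild type was at 10.7 CPM and the ratios were smaller, 1.74, 1.52 and 0.22.

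Bace2, a protease related to the beta-secretase of the amyloid precursor, had 9, 118, 71 and 27 UMIs, with log2 ratios of 2.63 (1.66 to 3.79), 2.46 (1.46 to 3.65) and 1.84 (0.70 to 3.11), against 0.29, 0.03 and -0.16 in other excitatory nuclei. In cluster 6 wild type had 0 UMIs, where 3 counts would equal 1.24 CPM, and the knockouts had 44, 51 and 21. Outside that cluster the ratios were 1.54 (0.53 to 2.72), 0.73 (-0.47 to 2.05) and -0.07 (-1.84 to 1.59), the last 2 intervals including 0. C1qtnf7, the gene that leads cluster 48, had 11, 178, 143 and 29 UMIs, and was also higher in the other excitatory nuclei of the total and astrocyte knockouts (log2 1.74 and 1.95). With a pseudocount of 1 count, its ratios in these 2 knockouts were 2.82 and 3.07 over the group. Within cluster 6 they were 3.88 and 3.84, so the higher level was not confined to cluster 48.

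Tacr3, a tachykinin receptor, was higher in the total knockout at log2 2.15 (1.21 to 3.26), Sst, somatostatin, in the astrocyte knockout at 2.33 (1.32 to 3.53) and Rab3b, a GTPase of synaptic vesicles, in the neuron knockout at 1.72 (1.10 to 2.37). The other libraries were not all at the wild-type level: Rab3b stood at 7.70 CPM in wild type and at 24.3, 16.0 and 25.4 CPM in the knockouts, and Tacr3 at 2.57 CPM and at 11.4, 8.43 and 5.20 CPM. In the other excitatory nuclei of the same libraries the Tacr3, Sst and Rab3b ratios were 0.18, -0.10 and -0.12. With a pseudocount of 1 count, these ratios were 2.03, 2.20 and 1.69 over the group and 3.25, 1.89 and 2.20 in cluster 6. The Tacr3 ratio was thus smaller outside that cluster. The non-coding Gm45323 stood at 5.65 CPM in wild type and at 19.0, 19.0 and 21.1 CPM in the knockouts. Its ratio in the neuron knockout, with the same pseudocount, was 1.86 over the group and 3.39 in cluster 6. Outside that cluster the neuron knockout lay below wild type.

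Met, the receptor of hepatocyte growth factor, was lower in 2 of the 3 knockouts. It had 68, 65, 24 and 53 UMIs in the group, or 17.5, 7.88, 4.31 and 16.2 CPM, with log2 ratios of -1.15 (-1.66 to -0.64), -2.02 (-2.76 to -1.33) and -0.11 (-0.65 to 0.43). Inside and outside cluster 6 the astrocyte knockout had the lowest Met level, at log2 -1.92 and -2.51, and in the other excitatory nuclei the ratios were 0.33, -0.33 and -0.04. Among the other genes named as lower, Cdk15, a cyclin-dependent kinase, was at -2.08 (-3.05 to -1.17) and Orc1, a subunit of the origin recognition complex, at -1.85 (-2.72 to -1.01) in the total knockout, and Mterf1b, a mitochondrial transcription termination factor, at -2.56 (-4.53 to -1.04) in the neuron knockout. All 3 were lower in the other excitatory nuclei of the same library too, at -1.79 (-2.05 to -1.55), -0.74 (-0.97 to -0.50) and -0.31 (-0.56 to -0.06).

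**Figure D5:**
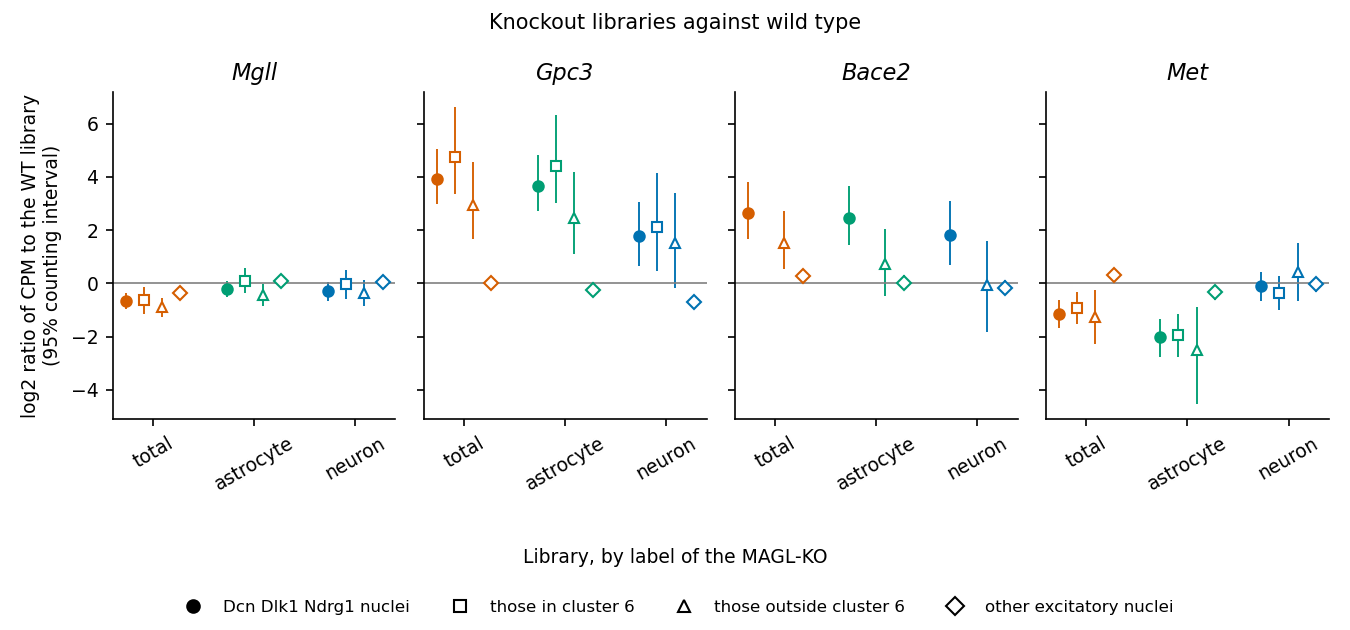
Log2 ratio of CPM to the wild-type library with 95% counting intervals for Mgll, Gpc3, Bace2 and Met in each knockout library, for the Dcn Dlk1 Ndrg1 nuclei (filled circles), those in cluster 6 (squares), those outside it (triangles) and the other excitatory nuclei (diamonds). Bace2 has no square because wild type had 0 UMIs there; the filled circles of Gpc3 lie at 3.92, 3.68 and 1.78 and its diamonds between -0.71 and 0.03.

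Several measures moved with these genotype values. The total knockout held the most called doublets, almost no female nuclei and the smallest share of group nuclei in clusters 6 and 5, and wild type the largest share of female nuclei. Gpc3 and the rule gene Vegfd lie on the X chromosome. Restricted to male nuclei, which left 85 in wild type, Gpc3 was at log2 2.52 and C1qtnf7 at 2.01 in the astrocyte knockout. Over all group nuclei the same ratios were 3.68 and 3.18. In male nuclei the total knockout gave 259 higher and 87 lower genes, against 203 and 94 over all group nuclei. Its ratios of single genes in male nuclei are not given here. The part of sex, doublets and cluster makeup in the genotype differences was not tested beyond these values, and genotype and library cannot be told apart.

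Listed gene groups were compared by their genes with at least 100 UMIs, against shares over the 10884 genes of the genotype comparison, which leave out the genes of the rule, Xist, Y-linked and mitochondrial genes, of 1.87% higher and 0.864% lower in the total, 0.891% and 0.515% in the astrocyte and 0.652% and 0.864% in the neuron knockout. Of 14 immediate early genes with at least 100 UMIs, none differed 2-fold in the total knockout, with a median log2 ratio of -0.16. In the astrocyte knockout 2 were lower, Arc, a cytoskeleton-associated synaptic protein, at -1.23 (-1.84 to -0.65) and Btg2, an antiproliferative factor, at -1.55 (-2.34 to -0.85), with a median of -0.48. In the neuron knockout 1 was higher, Egr4 at 1.45 (0.69 to 2.35), with a median of 0.30. The summed level of all 19 genes was 718, 618, 507 and 813 CPM in the group and 961, 801, 630 and 1064 CPM in the other excitatory nuclei, the same order of libraries in both. Of the 14 endocannabinoid genes 1 was 2-fold higher in the total and 1 in the neuron knockout, and none was 2-fold lower in any. Of 16 neuropeptide and receptor genes 3 were 2-fold higher in the total knockout and 2 in the astrocyte knockout, and 1 was lower in the neuron knockout. Of 13 glutamate receptor subunits 2 were higher in the total and 1 in the astrocyte knockout, and none was lower. The rule genes also varied: Vegfd was at log2 1.11, 0.96 and 0.86, Dcn at 0.22, 0.67 and 0.25 and Dlk1 at 0.73, 0.50 and -0.33 relative to wild type, which is a description since they chose the nuclei.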

How the data were processed

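Single-nucleus RNA libraries of mouse hippocampus were built with a 10x Genomics multiome kit, per the labels' protocols; the chromatin data were not used here. The authors deposited raw UMI counts per gene and barcode, with no normalization. Cell Ranger ARC 2.0.0 and mm10 are named in the submitters' processing notes; their annotation and strand setting are not stated in the labels, and barcodes with fewer than 400 or more than 5998 genes had been left out. The members and gene lists were chosen with earlier results of these data known.

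The 4 libraries, of 81623644 to 193307038 UMIs, were joined on 20211 shared symbols, and places are from GENCODE M21 (19830 symbols, 98.1%, matched). Doublets were called by Scrublet in scanpy 1.11.5 and kept. Clusters were Leiden clusters (resolution 1) from 2000 variable genes without rule, Mgll, sex and mitochondrial genes, 30 components and 15 neighbours. A nucleus was male with Y-linked UMIs and no Xist, female with the reverse. Summed counts were tested with edgeR 4.0.16 (quasi-likelihood, TMM, library as a block), with DESeq2 1.42.0 as an alternative; a fold change is called with an adjusted p under 0.05. In simulated counts for members against other excitatory nuclei (18130 genes), 100% of genes changed by log2 1.5 or 2 were called and 1 unchanged gene. The simulation had a fixed dispersion and the same means in every library, and genes at low levels were not changed. It does not cover smaller changes, low counts or differences between libraries. Knockouts, with 1 library each, were compared by ratios of CPM with exact 95% intervals, and named by a pseudocount of 1 count among genes with at least 100 UMIs.

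Genes named by rank from the tests were called with the same sign in all 4 libraries. They were the 15 highest and 10 lowest against other excitatory nuclei (at least 10 CPM in the higher set of nuclei), and the 8 and 5 against CA1 rule nuclei. Per knockout the 5 highest and 5 lowest ratios were ranked without a test, and only part of these genes is described above. Among those left out are Gm29675, the highest in the neuron knockout, and 4930525C09Rik, the lowest in the total knockout. For these the mean level over the 4 libraries was at least as high in the group as outside it, which wild type alone need not meet. Examples from each list were also named, of which those not among its most counted genes were chosen after their values were seen. Counts over the potassium channel list are not reported here.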

Additional observations from a re-analysis of the deposited data

How the results depend on the processing

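Gm6260, a leading gene of cluster 6, changed direction outside that cluster (log2 -0.10). So did Gm45323 and Bace2 in the neuron knockout, Bace2 with an interval that included 0. Mgll in the astrocyte knockout, whose interval included 0, changed sign within cluster 6. Shares of the group fell with the rule or depth in wild type, total, astrocyte and neuron knockout to 0.365, 0.540, 0.898 and 0.692% at 2000 UMIs, and to 2.02, 2.03, 3.20 and 2.33% with at least 4 rule genes; in the total knockout the share was 4.49% without doublets and 6.60% at 5000 to 20000 UMIs. The share in the 2 fullest clusters was 75.7% at Leiden resolution 0.5, 58.8% at 2 and 68.1% from the second other seed.

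Against other excitatory nuclei, leaving out 1 library in turn gave 278 to 328 higher and 714 to 826 lower genes, and the fit without the replicate block, that is without library, gave 303 and 723; DESeq2 gave 310 and 741. Against CA1 rule nuclei, leaving out 1 library gave 277 to 328 and 247 to 319, no replicate block 265 and 230, and DESeq2 265 and 240. The alternatives added after seeing the data were members outside cluster 6 (148 higher and 279 lower against other excitatory nuclei, 120 lower against CA1 rule nuclei), members of cluster 6 only (594 lower against CA1 rule nuclei) and the other seeds.

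For the total knockout against wild type, the higher genes numbered 114 with at least 4 rule genes, 121 without doublets, 114 in cluster 6 and 335 at 50 UMIs, and the lower ones 217 at 50 UMIs. For the astrocyte knockout there were 185 higher and 157 lower at 50 UMIs, 253 and 136 in male nuclei and 29 lower in cluster 6. For the neuron knockout there were 175 higher and 249 lower at 50 UMIs, 174 higher in male nuclei, and 58 lower without doublets and 56 in cluster 6. Mgll was at log2 -1.24 in the total knockout without doublets, and in the astrocyte knockout at -0.72 in male nuclei and 0.11 in cluster 6. Fewer nuclei lower the number of genes that reach 100 UMIs; the cause of the other shifts was not tested. Low counts limit Dlk1, Dio3, Gm34719, 3110009F21Rik, Gm40576, Dio3os, Dll1, Dsp, Ogn, Ccn1 and Ccn2, among others.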
